A study of Mus musculus with 3 samples.

Results

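The 9 transcription factor genes described here are Eomes, Tbx21, Prdm1, Id2, Id3, Runx3, Bhlhe40, Zeb1 and Zeb2, which were taken by name from a table of 17121 genes, and all 9 were listed in it. Their RNA was measured in CD8+ T cells, the cytotoxic T cells, isolated from spleen and lymph nodes of wild-type mice and kept in culture for 3 days. The 3 culture groups analysed had 1 sample each. Aged TRM cells came from mice of 18 months and were stimulated with antibodies to CD3 and CD28 (1 µg/ml) together with IL-15 (20 ng/ml) and TGF-beta (5 ng/ml), cytokines that favour a tissue-resident memory (TRM) state. Young TRM cells came from mice of 6 weeks and had the same antibodies and cytokines. Young TCR cells, also from mice of 6 weeks, had the antibodies alone, which engage the T cell receptor (TCR) and a co-stimulatory receptor. All 3 groups thus shared the receptor stimulus, and all are cells activated in a dish rather than memory cells taken from tissue. The strain, and whether cells of several mice were pooled, are not given in the labels. The T cell gene Cd3e had 364 CPM in aged TRM, 380 CPM in young TRM and 302 CPM in young TCR, and Cd8a had 1632, 1822 and 747 CPM in the same order. The 5 listed CD8+ T cell markers summed to 2927, 3258 and 1968 CPM, where CPM are read counts scaled to the size of the library. The table had 40385477 reads for aged TRM, 36021887 for young TRM and 39915663 for young TCR.

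These factors set the fate of an activated CD8+ T cell. The T-box factors T-bet (Tbx21) and Eomes turn on effector genes and the receptor chain for IL-15, and both are known to be lowered when mouse tissue-resident cells form under TGF-beta. Blimp-1 (Prdm1), Runx3 and Bhlhe40 are known to favour effector function and tissue residency in mouse CD8+ T cells. Id2 and Id3 hold no DNA-binding region and keep E proteins from binding DNA. Id2 goes with effector cells and Id3 with long-lived memory precursors. Zeb1 and Zeb2 are zinc finger repressors that recognise related E-box sequences, of which Zeb2 goes with terminal effector cells and Zeb1 with memory cells.

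Libraries were scaled by the trimmed-mean (TMM) method, and samples were compared by the log2 ratio of CPM after adding 1 to each level. Calls of higher or lower needed a log2 ratio of 1 or more in size and a 95% counting interval of the fold that excluded 1. Folds are given without the pseudocount. With 1 sample a group there was no test against variation between mice, and no p-value was computed, so calls compare these samples and not the conditions. Each sample had 2 numbered columns of unstated meaning, taken as repeat measurements. For genes of at least 50 reads, columns of 1 sample differed by 2.32 to 3.14 times the counting variance, so the counting intervals are narrower than the spread between columns. In bulk RNA, fewer cells that express a gene and less RNA per cell cannot be told apart.

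In young TRM against young TCR, Prdm1, Id2 and Eomes fell and Id3 rose. That is 4 of 9 genes called, beside 7.78% of the 11588 genes tested. The 3 lower genes stand beside 3.60% of genes called lower and the 1 higher gene beside 4.18% called higher. In aged TRM against young TRM, Prdm1 rose and Id3 fell, 2 of 9 genes beside 3.40% of 11575, with 2.25% of genes called higher and 1.15% called lower. All 4 genes of the first comparison passed 2-fold in all 4 pairings of numbered columns, beside 6.24% of genes, and in the second comparison Id3 did so, beside 2.40%. The genes were chosen with earlier results of these data known, so these counts are a description. The median size of the log2 ratio was 0.98 over the 9 genes in the first comparison and 0.52 in the second, beside 0.24 and 0.17 over all genes tested. Both comparisons use the young TRM sample.

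**Figure D1:**
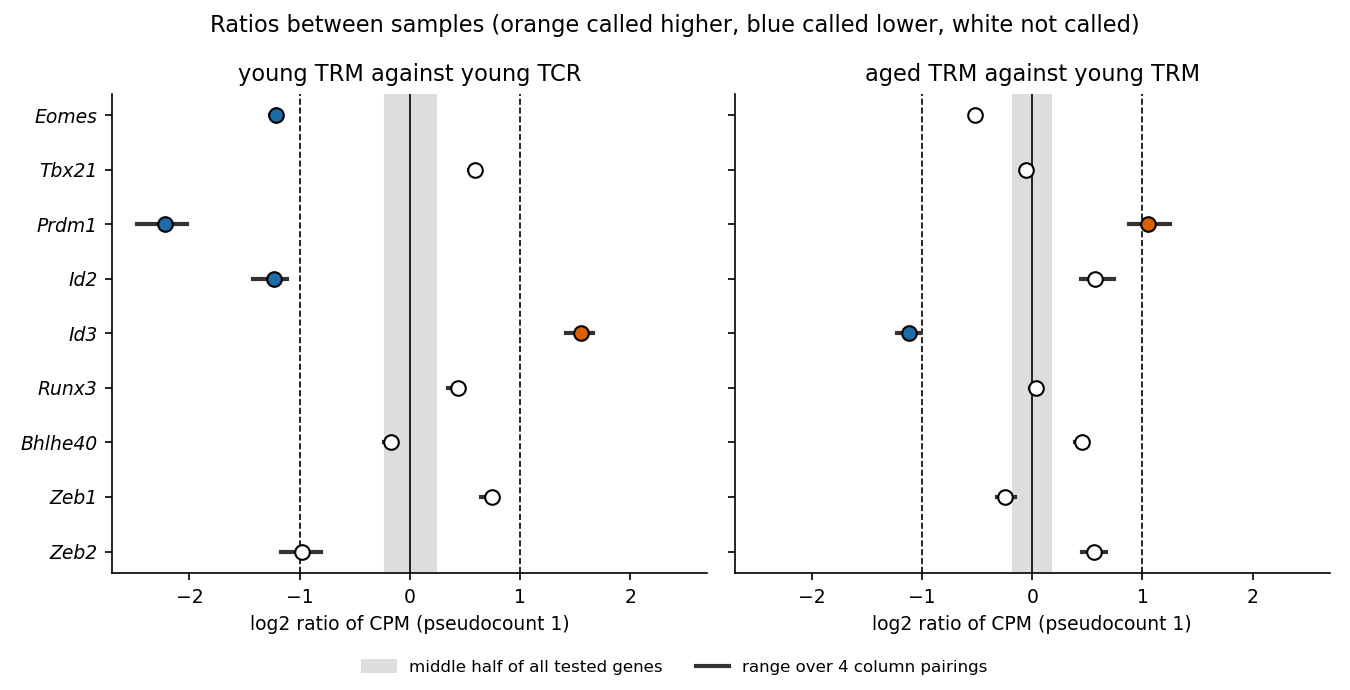
Log2 ratio of CPM (x axis, pseudocount 1) for each of the 9 genes in young TRM against young TCR (left) and aged TRM against young TRM (right). Orange points are genes called higher, blue points genes called lower and white points genes not called, with horizontal lines the range over the 4 pairings of numbered columns, the grey band the interquartile range of all genes tested, and dashed lines a log2 ratio of 1 in size. Prdm1 lies at -2.22 on the left and 1.05 on the right, and Id3 at 1.55 and -1.12.

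Eomes (gene ID 13813, chromosome 9, 118478186 to 118486132 of GRCm38.p6) had 65.1 CPM in aged TRM, 93.5 CPM in young TRM and 217 CPM in young TCR. Young TCR was the highest sample, and no column of one sample overlapped those of another. Eomes was 2.32-fold lower in young TRM than in young TCR (interval 2.23 to 2.42, log2 ratio -1.21), and only 5.39% of the genes tested had a larger log2 ratio in size. Between aged TRM and young TRM its log2 ratio was -0.52, which was not called, and aged TRM was the lowest of the 3 samples.

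Tbx21 (gene ID 57765, chromosome 11, 97098007 to 97115331), which encodes T-bet, had 112 CPM in aged TRM, 117 CPM in young TRM and 77.6 CPM in young TCR. Both samples with added cytokines lay above young TCR, by a log2 ratio of 0.59 in young TRM (1.51-fold, 1.44 to 1.58), which was below the threshold for a call. Aged TRM and young TRM were close, with a log2 ratio of -0.06 and columns of 110 and 114 CPM in aged TRM against 117 and 116 CPM in young TRM.

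T-box factors and Zeb2 are also made by NK cells. The 8 markers of NK and innate lymphoid cells summed to 134 CPM in aged TRM, 99.2 CPM in young TRM and 35.9 CPM in young TCR, most of it Kit (110, 78.4 and 29.6 CPM). Of the 8, Ncr1, Klrb1c, Fcer1g, Tyrobp and Kit rose in young TRM against young TCR, and 0 were called with age. The NK receptor gene Ncr1 had 1.18 CPM in aged TRM, 2.19 CPM in young TRM and 0.0493 CPM in young TCR. The part of these cells in the levels of Eomes, Tbx21 and Zeb2 was not tested.

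Because T-bet and Eomes bind much the same sites, their balance was followed as the ratio of TPM, a level per transcript length that can be compared between genes. There were 0.398 Eomes transcripts for each Tbx21 transcript in aged TRM, 0.547 in young TRM and 1.92 in young TCR. Eomes was thus the more abundant of the pair in young TCR and the less abundant in both samples with added cytokines. The columns gave 0.405 and 0.392 in aged TRM, 0.551 and 0.543 in young TRM, and 1.93 and 1.91 in young TCR.

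**Figure D2:**
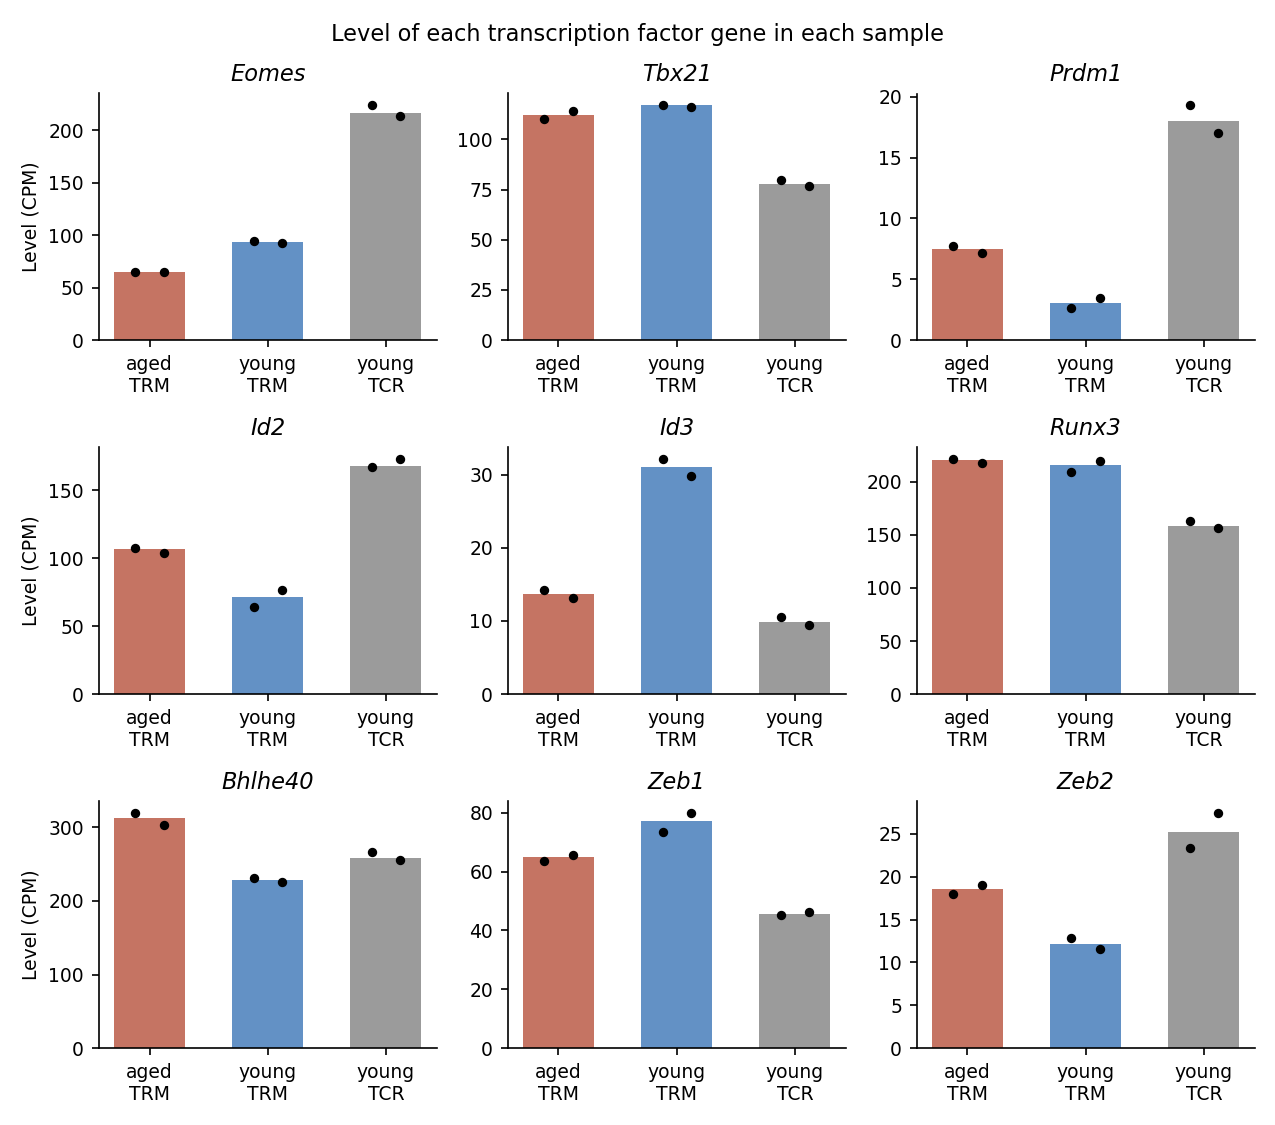
Level in CPM (y axes, from 0, with a scale of their own in each panel) of the 9 genes in aged TRM, young TRM and young TCR. Bars are samples and black points the 2 numbered columns of each. Eomes, Prdm1, Id2 and Zeb2 are highest in young TCR, while Id3 is highest in young TRM, at 31.0 CPM.

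Prdm1 (gene ID 12142, chromosome 10, 44437174 to 44528558) had the largest log2 ratio in size of the 9 genes in young TRM against young TCR. It had 7.45 CPM in aged TRM, 3.09 CPM in young TRM and 18.0 CPM in young TCR, from 303, 109 and 730 reads. Young TRM was lowest, at 2.65 and 3.43 CPM in its columns, and the 3 samples did not overlap. Prdm1 was 5.82-fold lower in young TRM than in young TCR (4.75 to 7.19, log2 ratio -2.22), and 1.30% of genes tested had a larger ratio in size. It was 2.41-fold higher in aged TRM than in young TRM (1.93 to 3.03, log2 ratio 1.05), and this call was lost with column 2 alone (0.88), with the authors' TPM (0.86) and with a pseudocount of 5 (0.62).

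Blimp-1 is also made by plasma cells. The 8 markers of B and plasma cells used here, taken as 1 list, summed to 22.8 CPM in aged TRM, 16.9 CPM in young TRM and 46.9 CPM in young TCR. The order of these sums was like that of the Prdm1 levels. The largest share was Cd79b, a B cell receptor component, which was not called and was not lowest in young TRM, with 11.7 CPM in aged TRM, 12.9 CPM in young TRM and 15.5 CPM in young TCR. In young TRM against young TCR 6 of 7 tested markers fell (Cd79a, Ms4a1, Cd22, Pax5, Mzb1 and Sdc1), and in aged TRM against young TRM 2 of 6 rose (Ms4a1 and Pax5). The plasma cell marker Sdc1 had 1.23 CPM in aged TRM, 0.454 CPM in young TRM and 2.89 CPM in young TCR, and Jchain, a joining chain of antibodies, had 0.738, 0.227 and 0.962 CPM in the same order of samples. None of the 8 was at 0 in any sample. The part of these cells in the Prdm1 levels was not tested.

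Promoter sequences of RefSeq (GRCm38.p6) were used for 7 of the 9 genes, without Bhlhe40, which had no match, and Zeb1, which was left out. They were searched on both strands in the 250 bases before each start site for CAGGTG, the E-box form bound by Zeb factors, CACGTG, the form bound by Bhlhe40, TGTGGT, a core Runx motif, and GTCTAGAC, a palindrome bound by SMAD proteins, the messengers of TGF-beta. CAGGTG reads CACCTG on the other strand, TGTGGT reads ACCACA there, and the remaining motifs read the same on both. No matches overlapped, and they describe letters only. Of 32851 promoters, 17.2% held CAGGTG, 6.02% CACGTG, 14.0% TGTGGT and 0.167% GTCTAGAC. The sequences below, written 5′ to 3′ on the strand of the gene, are those of the 7 genes searched in which a motif was found. Capitals mark the motifs.
Prdm1 (a start site inside the annotated gene), chr10:44458749-44458998, minus strand: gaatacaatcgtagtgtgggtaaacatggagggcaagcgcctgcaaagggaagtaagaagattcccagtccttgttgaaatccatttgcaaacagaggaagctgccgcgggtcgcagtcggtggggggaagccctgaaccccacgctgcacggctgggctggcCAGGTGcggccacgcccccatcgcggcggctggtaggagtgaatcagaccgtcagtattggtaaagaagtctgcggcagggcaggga
Tbx21, chr11:97115332-97115581, minus strand: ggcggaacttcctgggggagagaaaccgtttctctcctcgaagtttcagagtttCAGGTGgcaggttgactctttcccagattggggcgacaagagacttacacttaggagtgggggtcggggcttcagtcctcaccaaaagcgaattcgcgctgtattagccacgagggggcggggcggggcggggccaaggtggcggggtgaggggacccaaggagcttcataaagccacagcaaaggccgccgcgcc
Runx3 distal promoter, chr4:135120395-135120644, plus strand: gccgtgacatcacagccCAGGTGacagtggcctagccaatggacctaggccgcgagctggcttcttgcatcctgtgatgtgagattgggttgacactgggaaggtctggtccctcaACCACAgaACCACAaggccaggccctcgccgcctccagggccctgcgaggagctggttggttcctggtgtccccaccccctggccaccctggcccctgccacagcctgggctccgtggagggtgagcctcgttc
Runx3 proximal promoter, ended where an annotated exon begins, chr4:135152295-135152495, plus strand: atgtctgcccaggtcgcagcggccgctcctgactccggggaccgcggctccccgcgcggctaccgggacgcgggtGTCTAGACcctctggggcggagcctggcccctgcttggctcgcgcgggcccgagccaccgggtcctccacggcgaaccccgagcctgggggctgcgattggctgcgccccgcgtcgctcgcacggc
The Prdm1 window held CAGGTG, 87 bases before the start site, and the Tbx21 window held it 196 bases before. The distal Runx3 promoter held CAGGTG and a pair of Runx motifs, which read ACCACA on this strand. The proximal one held the SMAD palindrome, 175 bases before its start site. None of the 4 motifs was found in the windows of Eomes, Id2, Id3 and Zeb2, which says only that these letters are not in those 250 bases.

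The Id genes were called in opposite directions in young TRM against young TCR. Id2 (gene ID 15902, chromosome 12, 25093799 to 25096092) had 107 CPM in aged TRM, 71.3 CPM in young TRM and 168 CPM in young TCR. It was 2.36-fold lower in young TRM than in young TCR (2.26 to 2.47, log2 ratio -1.23). The young TRM columns stood at 64.0 and 76.8 CPM, below both other samples. In aged TRM against young TRM the log2 ratio was 0.57 (1.49-fold, 1.42 to 1.57), which was not called.

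Id3 (gene ID 15903, chromosome 4, 136143822 to 136145392) had 13.7 CPM in aged TRM, 31.0 CPM in young TRM and 9.92 CPM in young TCR. Young TRM stood above both other samples in each column. In young TRM, Id3 was 3.12-fold above its level in young TCR (2.78 to 3.51, log2 ratio 1.55). It was 2.26-fold lower in aged TRM than in young TRM (2.04 to 2.51, log2 ratio -1.12), a call that held in all 4 column pairings (-1.23 to -1.02) and was lost with a pseudocount of 5 (-0.94). In that comparison 2.52% of genes tested had a larger ratio in size. Foxp3, the defining factor of regulatory T cells, was likewise highest in young TRM, with 3.71 CPM in aged TRM, 33.6 CPM in young TRM and 1.95 CPM in young TCR. It rose in young TRM against young TCR and fell with age. Of the 4 tested markers of CD4 and regulatory T cells, Zbtb7b also fell in the first comparison, and the 5 listed summed to 285 CPM in aged TRM, 289 CPM in young TRM and 297 CPM in young TCR. Most of these sums was Ctla4, an inhibitory receptor gene that activated T cells also express, with 255 CPM in aged TRM, 234 CPM in young TRM and 266 CPM in young TCR. The part of such cells in the Id3 levels was not tested.

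Per transcript length, Id2 exceeded Id3 in every sample. The ratio of Id2 to Id3 TPM was 5.75 in aged TRM, 1.68 in young TRM and 12.6 in young TCR. Young TRM thus had the most even balance, with columns at 1.47 and 1.90, and the aged TRM columns lay at 5.60 and 5.90.

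**Figure D3:**
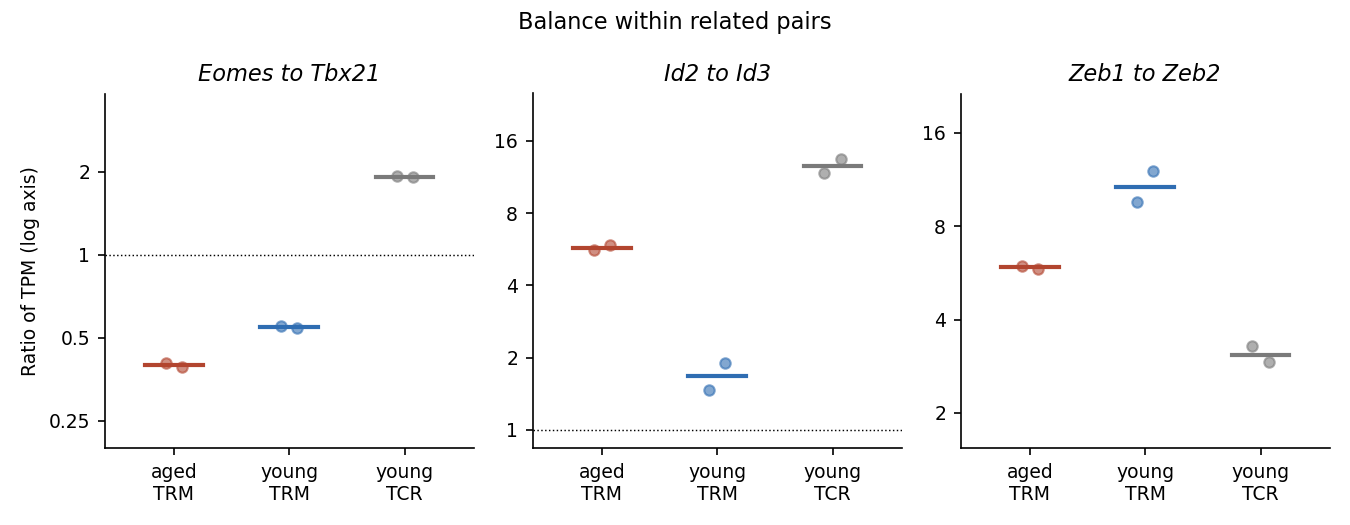
Ratio of TPM (y axes, log scale) within 3 pairs of related genes in aged TRM, young TRM and young TCR. Lines are samples and points their numbered columns. Eomes to Tbx21 is above 1 in young TCR alone (1.92), Id2 to Id3 is lowest in young TRM (1.68), and Zeb1 to Zeb2 is highest there (10.7).

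Id2 and Id3 bind the E proteins. Among 5 genes of E proteins and of the other Id proteins, 3 reached 1 CPM and 0 were called in either comparison, with medians of -0.09 and -0.16 (all genes 0.02 and -0.01). The E protein gene Tcf3, which encodes E2A, had 93.8 CPM in aged TRM, 109 CPM in young TRM and 161 CPM in young TCR. Tcf12, which encodes HEB, had 115, 125 and 133 CPM in the same order, and Tcf4 had 5.39, 6.13 and 6.22 CPM. Id1 lay below 1 CPM in all samples.

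Runx3 (gene ID 12399, chromosome 4, 135120645 to 135177990), which silences Cd4 and maintains Cd8 in this lineage, had 220 CPM in aged TRM, 216 CPM in young TRM and 158 CPM in young TCR. Both samples with added cytokines lay above young TCR, by a log2 ratio of 0.44 in young TRM (1.36-fold, 1.32 to 1.41), which was not called. Aged TRM and young TRM overlapped, at 221 and 217 CPM in the aged columns against 209 and 219 CPM in the young ones (log2 ratio 0.03). Of the 5 Runx and CBF partner genes, Runx2 rose to 125 CPM in young TRM, against 52.0 CPM in young TCR (2.40-fold, 2.28 to 2.53), and Cbfa2t3, a co-repressor gene, fell to 0.681 CPM in young TRM, against 3.23 CPM in young TCR. Cbfb, the shared partner of Runx proteins, had 317 CPM in aged TRM, 316 CPM in young TRM and 238 CPM in young TCR. The list medians were 0.41 and 0.01. None of the 5 was called in the age comparison, where Runx1 had 21.2 CPM in aged TRM and 38.9 CPM in young TRM (log2 ratio -0.85).

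Bhlhe40 (gene ID 20893, chromosome 6, 108660629 to 108666925), a helix-loop-helix repressor, had 312 CPM in aged TRM, 229 CPM in young TRM and 258 CPM in young TCR. It was the only one of the 9 genes with young TCR between the other samples. Its columns did not overlap between samples, though the log2 ratios were small, -0.17 in young TRM against young TCR and 0.45 in aged TRM against young TRM (1.36-fold, 1.33 to 1.40), and neither was called. Its close relative Bhlhe41 had 0.812 CPM in aged TRM, 0.199 CPM in young TRM and 4.46 CPM in young TCR, and fell in young TRM against young TCR.

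Zeb1 (gene ID 21417, chromosome 18, 5591327 to 5775468) had 64.9 CPM in aged TRM, 77.3 CPM in young TRM and 45.5 CPM in young TCR. The log2 ratio was 0.75 in young TRM against young TCR (1.70-fold, 1.60 to 1.80) and -0.25 in aged TRM against young TRM. Zeb2 (gene ID 24136, chromosome 2, 44983512 to 45117442) had 18.6 CPM in aged TRM, 12.2 CPM in young TRM and 25.2 CPM in young TCR, so that its highest and lowest samples were the reverse of those of Zeb1. It was 2.06-fold lower in young TRM than in young TCR (1.84 to 2.31). With the pseudocount the log2 ratio was -0.98, just short of a call, and it passed the threshold with column 2 alone (-1.17) and with scaling by totals only (-1.03). In aged TRM against young TRM it was 0.56. The TPM ratio of Zeb1 to Zeb2 was 5.90 in aged TRM, 10.7 in young TRM and 3.08 in young TCR. Genes of long noncoding RNAs overlap Eomes, Bhlhe40, Zeb1 and Zeb2 in the annotation and no source used here says whether reads were assigned by strand, so their reads cannot be told apart.

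By TPM the order of the 9 genes differed between samples. In aged TRM it ran Bhlhe40 (203 TPM), Id2 (174), Runx3 (120), Tbx21 (89.4), Eomes (35.6), Id3 (30.2), Zeb1 (24.3), Zeb2 (4.12) and Prdm1 (2.80). In young TRM it ran Bhlhe40 (144 TPM), Runx3 (114), Id2 (111), Tbx21 (90.1), Id3 (66.3), Eomes (49.3), Zeb1 (28.1), Zeb2 (2.63) and Prdm1 (1.09). In young TCR it ran Id2 (268 TPM), Bhlhe40 (164), Eomes (115), Runx3 (85.7), Tbx21 (60.1), Id3 (21.3), Zeb1 (16.9), Prdm1 (6.66) and Zeb2 (5.49). Runx3 and Id2 in young TRM were the only neighbours whose columns overlapped. Prdm1 had 41.1% of listed genes below its TPM in aged TRM, 36.6% in young TRM and 48.1% in young TCR.

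**Figure D4:**
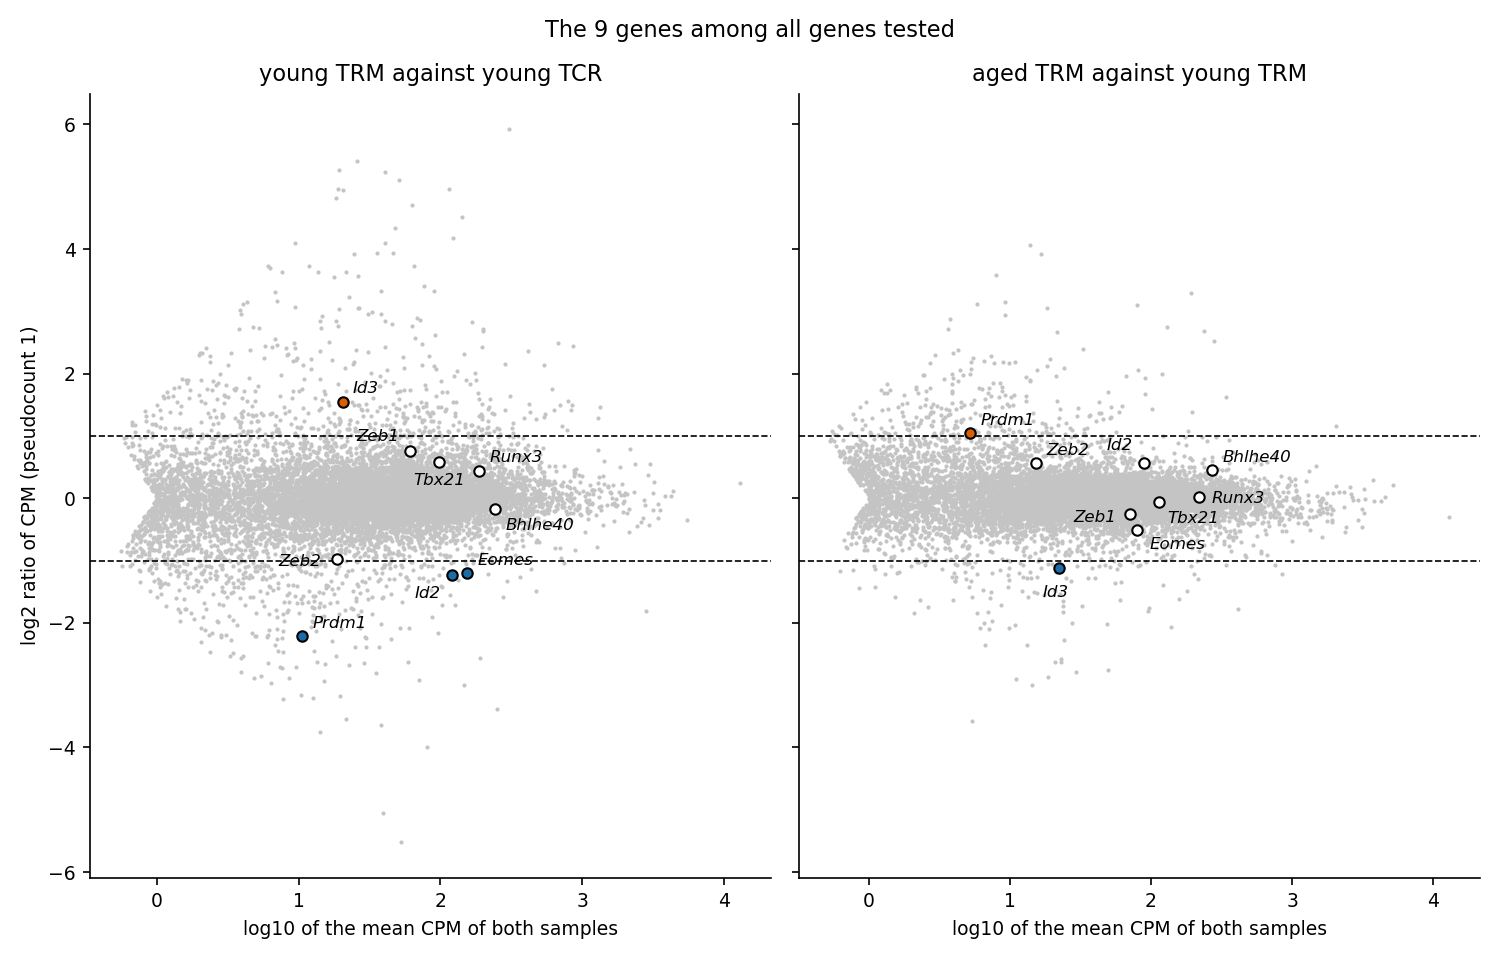
Log2 ratio of CPM (y axis, pseudocount 1) against the log10 of the mean CPM of both samples (x axis) for all genes tested (grey) and the 9 genes (orange called higher, blue called lower, white not called), in young TRM against young TCR (left, 11588 genes) and aged TRM against young TRM (right, 11575 genes). Prdm1, Id2, Eomes and Id3 lie outside the dashed lines on the left, and Prdm1 and Id3 on the right.

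Genes known to be controlled by these factors were followed as lists (with age stands for aged TRM against young TRM), which are described by their counts and medians beside the median of all genes tested (0.02 in the first comparison, -0.01 in the second). Genes activated by T-bet or Eomes went both ways in young TRM against young TCR, where 3 of 14 tested rose and 3 fell (median -0.11). Il18r1, a receptor chain for IL-18, rose to 80.7 CPM in young TRM, against 10.7 CPM in young TCR. Cx3cr1, the receptor for fractalkine, rose to 37.9 CPM in young TRM, against 0.247 CPM in young TCR, and Il18rap rose as well. Ccl5, a chemokine gene, fell to 4.74 CPM in young TRM, against 32.3 CPM in young TCR, and so did the genes of the cytotoxic proteins perforin (Prf1) and granzyme B (Gzmb). Gzmb had 2807 CPM in aged TRM, 1251 CPM in young TRM and 4393 CPM in young TCR. Il2rb, which encodes the receptor chain for IL-15 and IL-2, had 1119 CPM in aged TRM, 1245 CPM in young TRM and 1372 CPM in young TCR. With age 5 of the 14 rose and 1 (Cx3cr1) fell, and the median was 0.35. Ifng, which encodes interferon gamma, and the chemokine gene Ccl3 rose to 478 and 131 CPM in aged TRM, against 82.1 and 30.6 CPM in young TRM, and Ccl4, Ccl5 and Gzmb rose as well. Klrg1, S1pr5 and Hlx lay below 1 CPM in all samples.

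Genes repressed by Blimp-1 had a median of -0.03 in young TRM against young TCR, the comparison in which Prdm1 fell, and the sign of the median turned with some settings (0.03 with the authors' TPM and with genes of at least 10 CPM). Of 11 tested, Id3, Fos and Klf2 rose and Bcl6, Pax5 and Cxcr5 fell. Klf2, a factor that keeps T cells in circulation, rose to 151 CPM in young TRM, against 35 CPM in young TCR, while Bcl6, which opposes Blimp-1, fell to 3.01 CPM in young TRM, against 23.9 CPM in young TCR. The median with age was -0.31, with Id3, Klf2 and S1pr1 fallen and Pax5 risen. S1pr1, the receptor for exit from tissue, fell to 14.5 CPM in aged TRM, against 50.2 CPM in young TRM. Pax5 and Cxcr5 are also B cell genes, and their part in the list was not tested apart from the B cell transcripts given above.

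Genes activated by Runx3 had medians of -0.32 and 0.94 over 7 tested genes. In young TRM against young TCR Itgae, which encodes the CD103 integrin chain, and Cd8a rose, to 605 and 1822 CPM in young TRM, against 8.98 and 747 CPM in young TCR, whereas Prf1, Gzmb and Ccl5 fell. With age Ifng, Gzmb and Ccl5 rose, and Itgae had 320 CPM in aged TRM and 605 CPM in young TRM (log2 ratio -0.92). The list shares Prf1, Gzmb, Ifng and Ccl5 with the T-box list. Of 4 tested genes repressed by Runx3, Bcl6 and Zbtb7b fell in young TRM against young TCR (median -0.77) and 0 were called with age (median 0.13, and from -0.08 to 0.29 over the alternatives). Zbtb7b, which directs the CD4 lineage, had 14.3 CPM in aged TRM, 8.03 CPM in young TRM and 18.1 CPM in young TCR. Cd4 had 11.6, 12.4 and 10.5 CPM in that order.

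Of 4 tested genes repressed by Zeb factors, Cdh1, which encodes E-cadherin, was the one called. It rose to 80.8 CPM in young TRM, against 1.16 CPM in young TCR (69.7-fold, 52.3 to 95). It fell to 38.3 CPM in aged TRM, against 80.8 CPM in young TRM (2.11-fold lower, 1.98 to 2.24). Epcam had 6.0 CPM in aged TRM, 8.80 CPM in young TRM and 5.08 CPM in young TCR, and Pkp3 had 51.6, 46.0 and 25 CPM in that order. Il7r, the receptor chain for IL-7 that Zeb2 is known to repress, had 203 CPM in aged TRM, 109 CPM in young TRM and 139 CPM in young TCR. The list medians were 0.77 and -0.16, of which the first was 0.12 and the second 0.07 without the filter on low values, and the second 0.16 with genes of at least 10 CPM.

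Among genes related to Bhlhe40, the cytokine genes Il10 and Csf2 fell in young TRM against young TCR and rose in aged TRM against young TRM. Csf2, which encodes GM-CSF, had 18.6 CPM in aged TRM, 3.29 CPM in young TRM and 22.4 CPM in young TCR. Il10, which Bhlhe40 is known to repress, had 6.86, 0.965 and 3.75 CPM in that order. The circadian genes Per1 and Dbp were not called in either comparison, and Per1 had 41.3 CPM in aged TRM, 40.6 CPM in young TRM and 38.3 CPM in young TCR. In all, 3 of 6 tested genes fell in the first comparison (median -0.80, and -0.32 without the filter on low values). In the second, 3 of 5 rose, namely Il10, Csf2 and Ifng (median 2.0, and 0.60 without that filter). Ifng is shared with the T-box list and the list of genes activated by Runx3, so its rise is counted there as well.

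**Figure D5:**
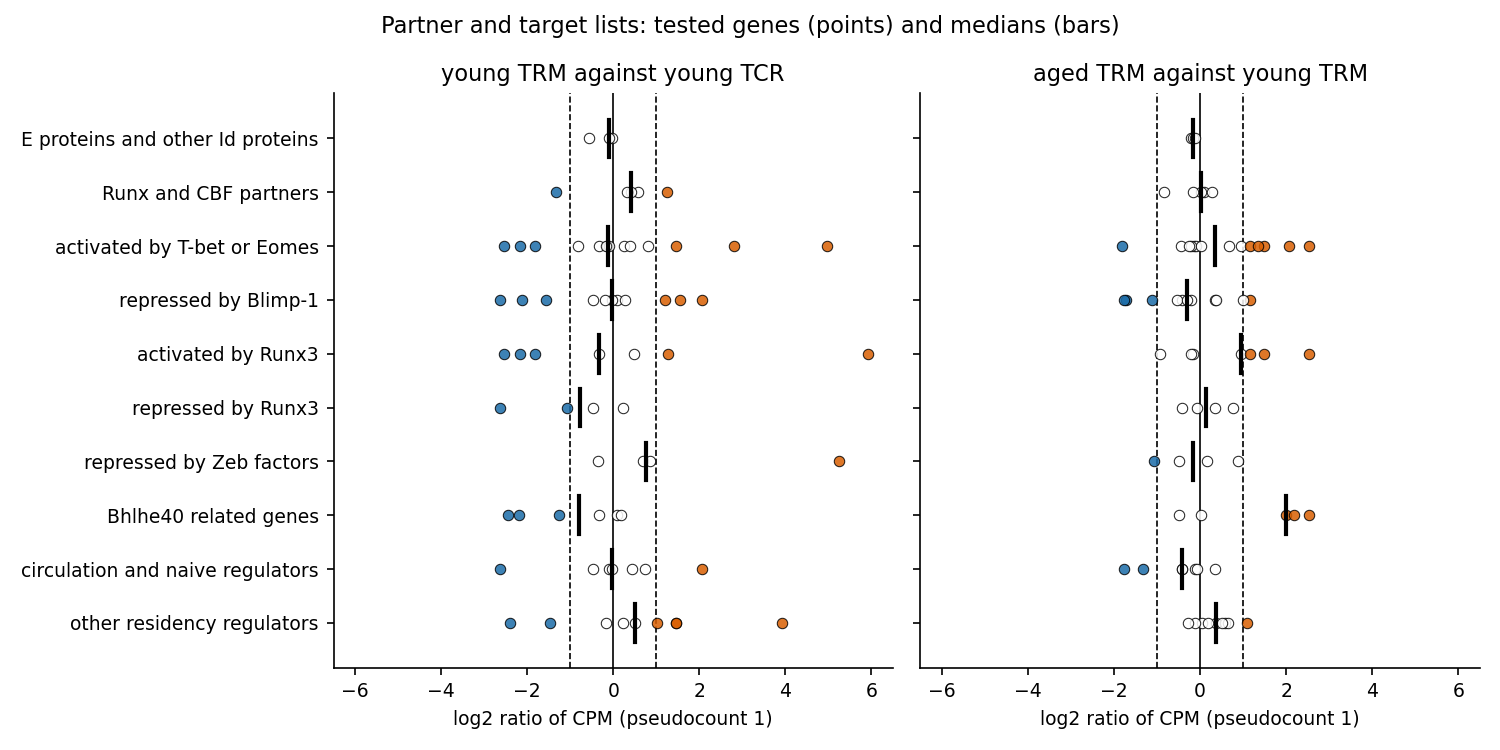
Log2 ratio of CPM (x axis, pseudocount 1) of each tested gene in the 10 partner and target lists, in young TRM against young TCR (left) and aged TRM against young TRM (right). Points are genes (orange called higher, blue called lower, white not called), and black bars are list medians. Genes activated by Runx3 have a median of -0.32 on the left and 0.94 on the right.

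Other regulators of residency and of circulation were set beside the 9 genes. Of 9 tested residency regulators, Ahr, Nr4a1, Nr4a3 and Notch1 rose and Batf and Nfil3 fell in young TRM against young TCR (median 0.51), while Batf alone was called with age, higher (median 0.38). Ahr, the aryl hydrocarbon receptor, had 48.7 CPM in aged TRM, 47.2 CPM in young TRM and 2.17 CPM in young TCR. Batf had 24.7, 11.2 and 62.7 CPM in that order. Zfp683, which encodes the Blimp-1 relative Hobit, was not analysed here. Of 7 circulation and naive regulators, Klf2 rose and Bcl6 fell in the first comparison (median -0.03), and Klf2 and Klf3 fell with age (median -0.42). Tcf7, which encodes TCF-1, had 355 CPM in aged TRM, 476 CPM in young TRM and 653 CPM in young TCR, without a call.

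Genes whose 2 log2 ratios lay nearest to those of a called factor were found among 9209 genes of at least 10 CPM in a sample, by Euclidean distance over the 3 samples. Nearest to Prdm1 were Slc37a2, BC035044 and Prf1, the last at a distance of 0.12, with 66.2 CPM in aged TRM, 34.1 CPM in young TRM and 157 CPM in young TCR. Nearest to Id2 were P4ha2, Stau2 and Crtam, an adhesion receptor of activated CD8+ T cells that had 76.1, 51.1 and 126 CPM in that order (distance 0.061). Nearest to Id3 were the interferon-induced GTPase gene Gbp2 (0.077), the antiviral nucleotidase gene Samhd1 (0.095) and Sgk3 (0.14). Gbp2 had 491 CPM in aged TRM, 1031 CPM in young TRM and 365 CPM in young TCR. Nearest to Eomes were Itm2a (0.10), Art2b (0.13) and Ncoa7 (0.18).

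Of 8 myeloid markers 4 were tested. Mpeg1 rose and Itgax fell in young TRM against young TCR, 0 were called with age, and the sums were 26.2 CPM in aged TRM, 40.7 CPM in young TRM and 25.9 CPM in young TCR. Adgre1, the gene of the macrophage marker F4/80, had 0 reads in young TRM. The part of such cells in the levels of the 9 genes was not tested.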

How the data were processed

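RNA-seq of 3 samples was analysed, 1 in each group. The read aligner Bowtie and the builds GRCm38 and mm10 are named, per the submitters' processing notes. Neither the counting program nor its annotation or use of strand is named in these sources. The authors deposited, per the file headers, read counts that need not be whole and were taken as estimated counts, and TPM values. The 2 numbered columns of a sample were rounded to whole counts and summed. A further 24 value columns were not used. A RefSeq gene table of GRCm38.p6 held 17071 of the IDs, and 23 symbols turned into dates were restored by ID.

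Libraries were scaled by TMM (edgeR 4.0.16, R 4.3.3; factors 1.01 in aged TRM, 0.978 in young TRM and 1.02 in young TCR). Tested genes had 1 CPM or more in either sample of a comparison. Intervals are 95% Clopper-Pearson intervals of the split of reads, from scipy 1.17.1 in Python 3.11.15, and cover counting error only, since reads are not independent molecules. The calling rule was tested on simulated data. The 9 genes, 10 partner and target lists, 5 marker lists and the rules for calling were chosen with earlier results of these data known. A marker of the B and plasma cell list is not reported here. Named from each list were up to 4 genes with the largest log2 ratios and at least 10 CPM, called genes that complete counts of 5 or fewer, and for each called factor the 3 nearest genes. Il2rb, Tcf4, Epcam, Dbp, the B and plasma cell markers, and genes given as below 1 CPM or at 0, fall outside that rule and were named after their values were seen. Alternatives were scaling by totals or by size factors of DESeq2 1.42.0, a pseudocount of 5, other filters, the authors' TPM and each numbered column alone.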

Additional observations from a re-analysis of the deposited data

How the results depend on the processing

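Over 8 alternatives the calls of Prdm1, Id2, Eomes and Id3 in young TRM against young TCR held in each, and Zeb2 was called lower as well with column 2 alone and with totals only. In aged TRM against young TRM the 2 called factors became 0 with a pseudocount of 5 (0 higher, 0 lower) and 1 with genes of at least 10 CPM, where Prdm1 was not tested, with the authors' TPM and with column 2 alone, where 0 were called higher. The sign of Runx3, which was not called, turned in that comparison with column 2 alone (-0.02). Over all genes, a pseudocount of 5 gave 486 called genes (296 higher and 190 lower) in the first comparison, against 901, and 149 (87 higher and 62 lower) in the second, against 393. With genes of at least 10 CPM the counts were 583 (234 lower) and 214 (123 higher). A larger pseudocount and a stricter filter act on weakly expressed genes by construction. Scaling by totals moved the median of all genes by -0.05 and 0.04. No paired analysis was possible because each group had 1 sample. Depth limits Prdm1 most, with 109 reads in young TRM.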
